A study of Mus musculus with 7 samples.

Results

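Marrow-derived migrating Langerhans-like cells (migrating mLCs) were the 875 of 11899 donor cells that the deposited annotation placed in the cluster of that name. They were taken from all 4 donor libraries, with 91 cells in BMT replicate 1, 766 in BMT replicate 2, 2 in BMT replicate 3 and 16 in BMT + T cells. The series held 7 samples of mouse epidermis, and its tables of CD11b+MHCII+ cells listed 12680 cells. The hosts, male C57BL/6 mice carrying CD45.2, were lethally irradiated and received marrow from female C57BL/6 donors carrying CD45.1, and single-cell RNA was read 3 weeks later with a droplet 5' kit. The labels called 3 donor libraries BMT (bone marrow transplant) and 1 donor library BMT + T cells, and another library, labelled BMT, held the hosts' own CD11b+MHCII+ cells. All groups were therefore irradiated and transplanted, no unirradiated skin is among the samples used here, and the epidermis of several mice was pooled for each sort. The series' design text gives CD4 T cells, and CD8 T cells of the Matahari line that recognise a male antigen, to the transplanted mice without setting libraries apart, so the labelled difference in T cells could not be checked and rests on 1 library.

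Langerhans cells are the antigen-presenting cells of the epidermis. They sit between keratinocytes through adhesion molecules such as EpCAM and E-cadherin, and after an activating signal they loosen these contacts, induce the chemokine receptor CCR7 and travel through lymph to the draining lymph node. When the original network is destroyed, monocytes from the marrow enter the epidermis and replace it, passing through EpCAM-positive intermediates.

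The cluster was marked by 5 genes, and the 4 sequences printed here lie just before a transcript start of genes that the results turn on. They are the 250 bases before 1 transcript start per gene in RefSeq on GRCm38.p6, printed 5' to 3' on the coding strand. The start used for Ccl17 lies 1073 bases inside the gene's annotated span, so its sequence is within that span and not before it. Ccl22 and Ccl17 encode the 2 ligands of the chemokine receptor CCR4 and are neighbours on chromosome 8, with 57991 bases and Cx3cl1 between their annotated spans. Fscn1 encodes the actin-bundling protein fascin, and Nr4a3 an orphan nuclear receptor. Capitals mark the short form of the cAMP response element (TGACGT, searched on both strands), a motif picked after these sequences had been read.
Ccl22 (chr8:94745434-94745683, + strand): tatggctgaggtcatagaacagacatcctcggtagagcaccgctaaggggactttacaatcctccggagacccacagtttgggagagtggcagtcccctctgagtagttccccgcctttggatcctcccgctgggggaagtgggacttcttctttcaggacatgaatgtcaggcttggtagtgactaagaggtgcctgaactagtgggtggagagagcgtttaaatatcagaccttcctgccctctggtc
Ccl17 (chr8:94810203-94810452, + strand): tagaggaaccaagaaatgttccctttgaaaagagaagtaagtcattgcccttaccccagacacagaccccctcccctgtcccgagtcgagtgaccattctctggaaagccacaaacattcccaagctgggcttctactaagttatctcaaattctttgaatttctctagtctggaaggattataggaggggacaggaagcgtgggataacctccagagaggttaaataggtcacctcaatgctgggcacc
Fscn1 (chr5:142960105-142960354, + strand): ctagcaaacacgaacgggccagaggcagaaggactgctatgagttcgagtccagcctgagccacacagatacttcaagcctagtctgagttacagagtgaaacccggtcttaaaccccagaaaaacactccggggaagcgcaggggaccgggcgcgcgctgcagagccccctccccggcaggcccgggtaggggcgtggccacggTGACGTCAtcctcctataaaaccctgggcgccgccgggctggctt
Nr4a3 (chr4:48045055-48045304, + strand): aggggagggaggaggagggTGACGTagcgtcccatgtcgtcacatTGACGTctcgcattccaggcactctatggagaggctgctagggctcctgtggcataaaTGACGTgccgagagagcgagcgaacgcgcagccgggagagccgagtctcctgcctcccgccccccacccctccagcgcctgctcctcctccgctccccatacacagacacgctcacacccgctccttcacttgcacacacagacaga
Nr4a3 held 3 copies, and in Fscn1 2 copies overlapped to form the palindrome TGACGTCA. In windows of 250 bases before to 50 after the start, the motif occurred in 6 of the 82 genes with a promoter entry among the 100 higher genes described below, or 7.32%, against 8.37% of 27025 genes with an entry and 14.4% of the 6293 tested genes with one. AP-1-type sites (TGANTCA) occurred in 9, or 10.98%, against 8.97% and 6.02%. A kappaB-type pattern occurred in 5, or 6.10%, against 1.89% and 1.95%, and an interferon-response-type pattern also in 5, against 3.99% and 4.13%. A match describes letters only, and these shares were not tested. Ccr7 and Cd83 had no entry in the table used.

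Migrating mLCs made up different shares of the donor libraries. They were 3.54% of 2572 cells in BMT replicate 1 (95% exact Clopper-Pearson interval 2.86 to 4.33%), 9.14% of 8382 in BMT replicate 2 (8.53 to 9.78%), 0.885% of 226 in BMT replicate 3 (0.107 to 3.16%) and 2.23% of 719 in BMT + T cells (1.28 to 3.59%). Counted within the Langerhans-like cells only (migrating, resident and cycling mLCs), the shares were 37.3% of 244, 34.4% of 2228, 3.39% of 59 and 4.32% of 370. On that count the first pair of libraries stood apart from BMT replicate 3 and BMT + T cells, whose intervals reached 11.7% and 6.93% while those of BMT replicates 1 and 2 began at 31.2% and 32.4%. BMT replicate 3 carries the same label as the first pair, so the split does not follow the label, and intervals cover counting error only. Migrating mLCs had a median of 14123, 8185, 27484 and 13607 UMIs (counted RNA molecules) per cell in the order of libraries above, and resident mLCs 10082, 7343, 18027 and 12852.5. The deposited latent time, a position from 0 to 1 along an inferred path, had a median of 0.405 in BMT replicate 1 and 0.412 in BMT replicate 2 for migrating mLCs, against 0.518 and 0.517 for resident mLCs and 0.195 and 0.223 for MCs, the Ccl17-rich monocyte-derived cells annotated beside them. The clusters were built from the same expression values, so differences between them below are described with no test, in BMT replicates 1 and 2, which alone held at least 20 migrating mLCs.

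The median mitochondrial share of migrating mLCs was lower than that of resident mLCs in 3 of 4 libraries, by 0.256 percentage points on average (SD 0.263, n = 4 libraries), which an exact two-sided permutation test of signs did not separate from 0 (p = 0.25; 4 libraries cannot give a p under about 0.13). By the mean over cells in place of the median it was lower in 4 of 4 libraries, by 1.31 percentage points, with that smallest p by the same exact test. Of the 875 cells, 2 had under 500 genes, 3 had over 20% mitochondrial UMIs, and 2 carried a barcode that another donor library also listed. Among all donor cells, 234 lay outside those limits.

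The 5 markers were high in migrating mLCs of 3 of the 4 libraries and at or near 0 in the 2 cells of BMT replicate 3. The paper named the cluster from genes that include Ccr7, Nr4a3 and Cd83, and the clusters were built from the same values. High marker levels therefore describe the cluster and are no check of its name. Levels are the mean over cells of UMIs per 10000 UMIs of that cell. Ccr7, the receptor that guides dendritic cells along CCL19 and CCL21 to lymph nodes, stood at 8.69 in BMT replicate 1, 9.13 in BMT replicate 2 and 4.70 in the 16 cells of BMT + T cells, and no UMI was found in the 2 cells of BMT replicate 3. Resident mLCs held no Ccr7 UMI in BMT replicate 1, which allows a level of up to 0.0297, and 0.0229 in BMT replicate 2, and MCs held 0.0299 and 0.0185. A Ccr7 UMI was seen in 62.6% and 54.0% of migrating mLCs, against 0% and 1.36% of resident mLCs in the same libraries. At 2000 UMIs per cell, which leaves out 8 and 37 migrating and 19 and 48 resident cells, these shares were 50.6% and 44.0% against 0% and 0.355%. Ccr7 was thus undetected in many cells that bore the cluster's name.

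Ccl22 averaged 27.0, 35.6 and 42.7 in BMT replicate 1, BMT replicate 2 and BMT + T cells, against 0.0067, 0.233 and 0.00781 in resident mLCs. MCs held 0.663, 1.42 and 1.32, so the 3 clusters kept the order migrating mLC, MC, resident mLC in each of these libraries. Fscn1 averaged 5.32, 4.93 and 5.59, and was at or under 0.0306 in resident mLCs and MCs of the same libraries. Nr4a3 averaged 7.76, 8.83 and 6.97 and Cd83, a surface protein of mature dendritic cells, 6.38, 6.29 and 6.51. These library means lay above those of both neighbouring clusters, but single cells were less separate. In BMT replicates 1 and 2, a Cd83 UMI was seen in 33.5% and 29.5% of MCs and 14.3% and 14.4% of resident mLCs. The highest other donor cluster with at least 20 cells reached 0.185 for Ccr7, 0.0568 for Fscn1, 0.854 for Nr4a3 and 0.853 for Cd83.

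**Figure D1:**
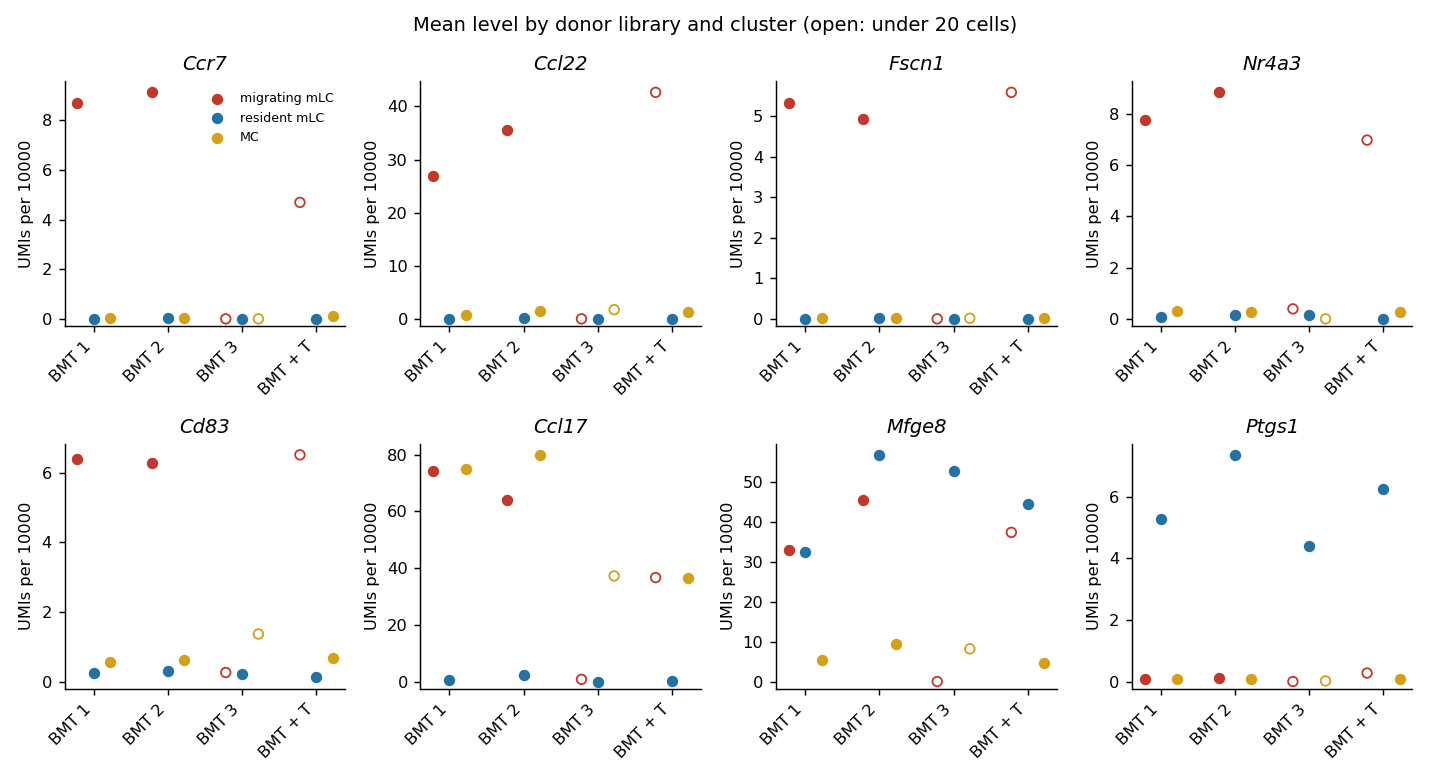
Mean UMIs per 10000 (y axis) of 8 genes in migrating mLCs, resident mLCs and MCs of the 4 donor libraries (x axis); open points are groups of under 20 cells. Ccr7, Ccl22, Fscn1, Nr4a3 and Cd83 were high in migrating mLCs of 3 libraries, Ccl17 was as high in MCs (75.1 and 79.9 in BMT replicates 1 and 2), Mfge8 was high in both mLC clusters, and Ptgs1 was high in resident mLCs alone of the 3.

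Single cells varied in how many of the 5 markers they showed. In BMT replicate 1, 68 of 91 migrating mLCs (74.7%) carried a UMI of at least 3 markers, in BMT replicate 2 541 of 766 (70.6%) and in BMT + T cells 10 of 16 (62.5%). The same held for 0 of 105 and 8 of 1175 resident mLCs and for 20 of 394 and 68 of 1610 MCs of BMT replicates 1 and 2. Thinned to 2000 UMIs, the migrating shares were 54.2%, 51.4% and 46.7%, against 0% and 0% in resident mLCs and 0.284% and 0.507% in MCs. At the other end, 59 of the 875 cells carried none of the 5, and 66 carried 1.

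Against resident mLCs, 7779 genes passed a level of 0.1 UMIs per 10000 in either cluster. Of these, 100 (1.29%) were over 4-fold higher in migrating mLCs in both BMT replicate 1 and BMT replicate 2, and 55 (0.707%) were over 4-fold lower in both. Differences are log2 of the ratio of levels after adding 0.1 to each, and are given in that order of libraries. The median difference over all 7779 genes was -0.32. Ccl22 led with 7.99 and 6.75, and among the next were Ccr7 (6.46 and 6.23), Fscn1 (5.76 and 5.45), Nr4a3 (5.50 and 5.16) and Apol7c (5.19 and 4.96). The lower genes were led by Ptgs1 (-4.99 and -5.04). Just inside the threshold lay Fxyd2 and Chst11 (2.01 in the library with the smaller difference) and, on the lower side, Fam135a (-2.01) and Lrmp (-2.005), and just outside Pde4b and Oasl1 (both 1.99) and Dgat2 (-1.999) and Lmln (-1.996).

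**Figure D2:**
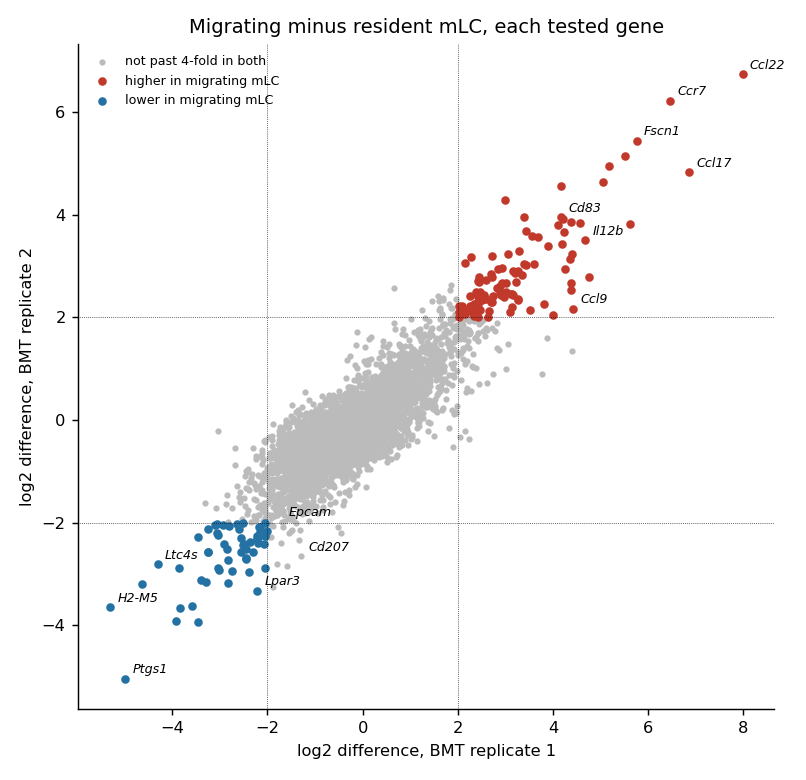
Log2 difference of each of 7779 genes between migrating and resident mLCs in BMT replicate 1 (x axis) and BMT replicate 2 (y axis); dotted lines mark 4-fold. The 100 higher (red) and 55 lower (blue) genes lie past 4-fold in both libraries, with Ccl22 farthest out on the higher side; Cd207 (-1.30 and -2.65) was past 4-fold in 1 library only.

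Many genes of dendritic cell maturation were higher. Of 39 measured members of the maturation list, 18 were over 4-fold higher and none lower, with a median difference of 1.89 against -0.32 over all genes. The list holds 4 of the 5 markers, and without them 14 of 35 were over 4-fold higher, with a median of 1.86. Among the 18 were Cacnb3, a calcium channel subunit (1.98 and 1.66 against 0 and 0.0213 in resident mLCs), Samsn1, an adaptor protein (4.67 and 4.90 against 0.175 and 0.26), and Mreg, a protein of organelle transport (1.71 and 1.78 against 0 and 0.0751). The count of 0 for Cacnb3 and Mreg in BMT replicate 1 allows a level of up to 0.0297. Not every maturation gene was higher: Marcksl1 stood at 3.12 and 3.23 against 3.05 and 3.54, and Ebi3, a cytokine chain, at 0.279 and 0.116 against 0.222 and 0.236.

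A set of 19 of 8713 genes (0.218%) was over 4-fold higher in migrating mLCs than in every other donor cluster of at least 20 cells in both libraries. Beside the 5 markers these included Apol7c, Cacnb3, Mreg, Serpinb9, an inhibitor of granzyme B, Serpinb6b, Cd200, a ligand that restrains myeloid cells, Map3k14, the kinase NIK of the alternative NF-kappaB pathway, and Il12b. Il12b, the p40 chain shared by IL-12 and IL-23, averaged 2.46 and 1.09, against at most 0.0984 in any other such cluster. It was seen in 14 of 91 and 63 of 766 cells, and in 1 of 16 in BMT + T cells, so its level there of 6.65 rested on 18 UMIs of 1 cell. Il12a and Il23a, the partner chains, were at or under 0.0249 in both libraries.

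Of the 21 NF-kappaB genes measured, 5 were over 4-fold higher than in resident mLCs, none lower, and the median difference was 1.35. Rel stood at 6.81 and 7.09 against 1.52 and 1.44, Relb at 2.32 and 1.63 against 0.436 and 0.294, and Map3k14 at 2.05 and 2.26 against 0.293 and 0.241. Traf1, a receptor adaptor, and Tnip3, a partner of the inhibitor A20, were the other two. The kinase genes Ikbkb and Chuk, by contrast, differed by -0.37 and 0.34 and by -0.78 and 0.16. In BMT + T cells, Rel (4.54 against 1.00), Relb (2.56 against 0.238) and Map3k14 (2.53 against 0.327) had the same direction. Against MCs of BMT replicates 1 and 2, 1 of the 21 NF-kappaB genes was over 4-fold higher, with a median difference of 0.76.

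Transcription factors split. Irf4, which dendritic cells need to reach lymph nodes, stood at 1.23 and 2.12 against 0.00945 and 0.17, Stat5a at 2.08 and 2.14 against 0.147 and 0.388, and the ETS-family repressor Etv3 at 5.21 and 5.14 against 0.405 and 0.539, each over 4-fold. Id2, a factor of Langerhans cell identity, was near level (8.51 and 7.57 against 9.68 and 7.94). Runx3, its partner in Langerhans cell development, stood at 2.99 and 3.67 against 10.8 and 8.93, and Ahr, the aryl hydrocarbon receptor, at 1.00 and 1.04 against 2.82 and 2.28; both were lower in each library and short of 4-fold. Of the 20 factors measured, 4 were over 4-fold higher than in resident mLCs and none lower. Against MCs, 1 of 19 was over 4-fold higher. Irf4 stood at 0.476 and 1.01 in MCs, within 4-fold of migrating mLCs.

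Among costimulatory genes, 3 of 11 were over 4-fold higher. They were Cd40 (7.89 and 7.98 against 0.756 and 1.14), the PD-1 ligand gene Cd274 (1.98 and 2.29 against 0.215 and 0.161) and Cd200 (1.31 and 1.30 against 0.054 and 0.0916). Cd80 had differences of 1.87 and 2.19 and Cd86 of 1.10 and 0.87, so neither passed 4-fold in both. Cd40 was also high in other clusters, at 5.93 and 4.68 in classical monocytes and 2.83 and 3.44 in MCs. Against MCs, 1 of the 11 costimulatory genes was over 4-fold higher. None of the 12 class II genes passed 4-fold against resident mLCs. H2-Aa, a chain of the class II molecule, stood at 149 and 128 against 116 and 130, while the peptide-loading genes H2-DMa (7.21 and 7.77 against 19.5 and 20.8) and H2-DMb1 (7.17 and 5.95 against 16.4 and 11.6) and March1, a ligase that removes class II from the surface (0.97 and 1.01 against 3.20 and 2.71), were lower in both libraries. March1 and Cd83 act in opposite ways on class II at the surface. Here the RNA of Cd83, a marker of the cluster, was higher and that of March1 lower, short of 4-fold. Class II protein at the surface was not measured, and an effect on it was not tested.

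The genes over 4-fold lower included 4 of 13 measured eicosanoid genes and 9 of 16 genes of Langerhans cell identity. Ptgs1, cyclooxygenase 1, stood at 0.0687 and 0.126 in migrating mLCs against 5.28 and 7.36 in resident mLCs, and at 0.276 against 6.24 in BMT + T cells. Hpgds, haematopoietic prostaglandin D synthase, stood at 0.704 and 0.651 against 11.4 and 9.43. Alox5, the lipoxygenase that starts leukotriene synthesis, stood at 0.13 and 0.243 against 2.67 and 4.14, and Ltc4s, leukotriene C4 synthase, at 0.127 and 0.53 against 4.40 and 4.34. These 4 of 13 eicosanoid genes measured were over 4-fold lower and none higher, with a median difference of -1.31. Alox5ap, the partner of Alox5, was lower but short of the threshold (3.20 and 3.99 against 12.05 and 13.1).

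Of 16 measured genes of Langerhans cell identity, 9 were over 4-fold lower and none higher, with a median difference of -2.67; Ptgs1, Hpgds and Ltc4s are members of both lists. They included P2rx2, an ATP-gated channel (0.0282 and 0.0544 against 1.85 and 2.22), H2-M5 (0.0257 and 0.192 against 4.88 and 3.56), the calcium channel gene Cacna1e (0 and 0.0141 against 2.39 and 0.951) and Rgs18, a regulator of G-protein signalling (0.225 and 0.129 against 3.48 and 3.39). The paper reports a gain of Ptgs1, Ltc4s, Lpar3 and Hpgds, beside Cd207, Epcam, Mfge8 and Cldn1, towards resident mLCs in these same cells. The list was chosen with such results known, so its count and median describe the clusters and are no independent check. The same holds for the eicosanoid list, which shares Ptgs1, Hpgds and Ltc4s. The defining Langerhans genes were lower with a spread between libraries. Cd207, langerin, stood at 0.472 and 0.79 against 1.31 and 5.50, a difference of -1.30 and -2.65. Epcam stood at 7.94 and 4.65 against 26.0 and 18.7, and Cdh1, E-cadherin, at 2.38 and 4.59 against 7.79 and 13.5. Others were within 4-fold: Mfge8, a secreted bridging protein of Langerhans cells, stood at 32.9 and 45.6 against 32.6 and 56.8 (37.4 against 44.4 in BMT + T cells), the tight-junction gene Cldn1 at 3.21 and 3.70 against 4.15 and 8.07, and the uptake receptor Ly75 (DEC-205) was the higher one in migrating mLCs, at 3.39 and 3.72 against 1.49 and 1.97. All 9 cell-cycle genes measured had mean differences below 0, as did 72.1% of all genes tested, and 1, Birc5, was over 4-fold lower.

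Against MCs the differences were fewer. Of 7135 genes, 33 (0.463%) were over 4-fold higher in migrating mLCs in both libraries and 5 (0.0701%) were lower. Of the 33, 27 were also among the 100 that were higher than in resident mLCs, and the other 6 (Mfge8, Klrd1, Tbc1d4, Arap2, Ly75 and Net1) were within 4-fold of resident mLCs. The 5 lower genes were the macrophage and monocyte genes Clec4a2, Fn1 (fibronectin), Trem2, Lyz2 (lysozyme) and Cmklr1 (the chemerin receptor). Lyz2 stood at 2.59 and 1.33 in migrating mLCs against 11.99 and 6.32 in MCs and 1.08 and 1.17 in resident mLCs.

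Some genes that set migrating apart from resident mLCs were also high in MCs. Of the 100 higher genes, 27 were over 4-fold higher in MCs than in resident mLCs and not over 4-fold higher in migrating mLCs than in MCs. Ccl17 stood at 74.1 and 64.1 in migrating mLCs, 75.1 and 79.9 in MCs and 0.542 and 2.16 in resident mLCs. Its neighbour Ccl22, printed above, was 4.56 to 5.15 higher on the log2 scale in migrating mLCs than in MCs, while Ccl17 differed by -0.02 and -0.32. The lectin genes Clec7a (dectin-1, 25.02 and 43.5 against 30.8 and 53.7 in MCs) and Mgl2 (CD301b, 5.22 and 7.30 against 5.47 and 7.25), the chemokine genes Cxcl9 (9.18 and 7.80 against 9.66 and 9.86) and Ccl9 (2.25 and 1.28 against 2.71 and 2.97), and Actn1, an actin crosslinker (1.99 and 2.87 against 1.47 and 2.09), were of the same kind. Of 11 chemokine genes, 6 were over 4-fold higher than in resident mLCs, 1 of them (Ccl22) also than in MCs.

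**Figure D3:**
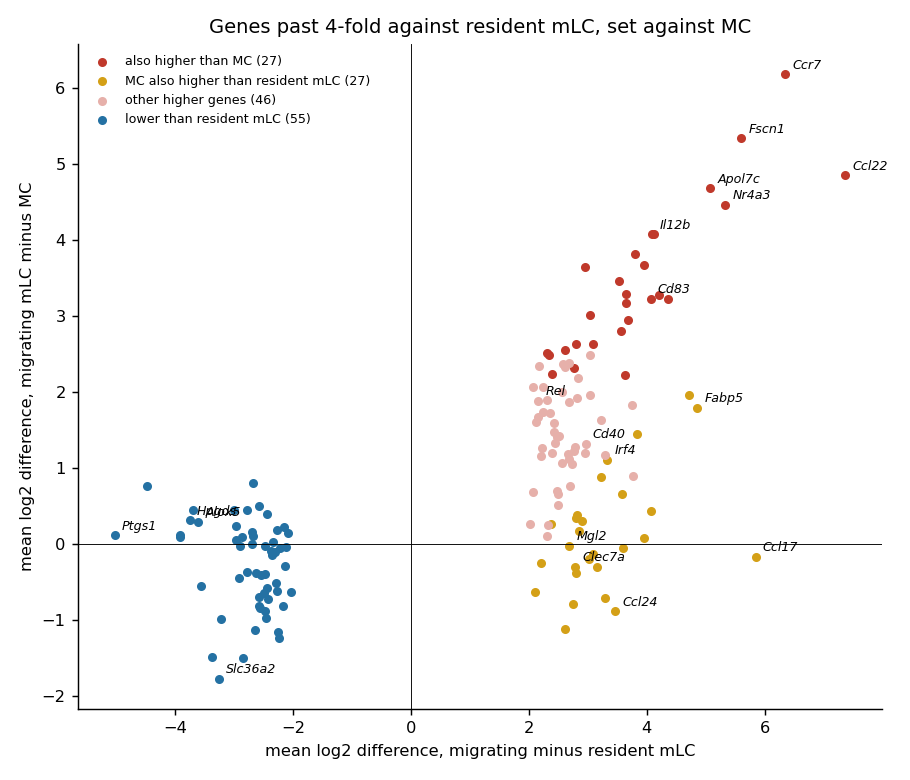
Mean log2 difference over BMT replicates 1 and 2 of the 155 genes past 4-fold, migrating minus resident mLCs (x axis) and migrating mLCs minus MCs (y axis). Red points (27) were also over 4-fold higher than in MCs; gold points (27), with Ccl17, Mgl2 and Clec7a, lie between -1.12 and 1.96 on the y axis; the 55 lower genes (blue) lie within 2 of 0 on it.

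Placed between MCs and resident mLCs, the migrating cells were at or beyond the MC level for 60 of the 118 genes that separate those clusters. They were at or beyond the resident level for 8. Over 4-fold in both libraries, 48 of 7693 genes (0.624%) were higher in resident mLCs than MCs and 70 (0.91%) were lower. A gene was called at the MC level where its log2 level lay within 0.25 of the way from MCs towards resident mLCs, or beyond MCs, in both libraries. Of the 48 resident genes, 28 were at the MC level and 3 (Mfge8, Klrd1 and Tbc1d4) were at the resident level by the same rule from the other end. Of the 70 MC genes, 32 were at the MC level and 5 (Fn1, Trem2, Cmklr1, Clec4a2 and Sirpb1c) at the resident level. The 32 include genes higher in migrating mLCs than in MCs, such as Ccl22, which lay far beyond MCs. The other 50 of the 118 genes lay between or differed between libraries. Per cell, a Ccl17 UMI and an Mfge8 UMI were found together in 58 of 91 and 555 of 766 migrating mLCs (63.7% and 72.5%). Both genes were thus read under the same barcodes, where independent detection would give 54.2% and 71.8%. In MCs of the same libraries, a Ccl17 UMI was seen in 87.3% and 95.03% of cells and an Mfge8 UMI in 57.4% and 74.6%. Many MCs must therefore have held both, so the pair does not set migrating mLCs apart from MCs. No doublet caller was run on these cells.

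Cytokine, cytoskeletal and survival genes gave smaller groups. Of 11 cytokine genes measured, Il12b, Il1b and the receptor antagonist Il1rn were over 4-fold higher and Il18 was lower. Il1b stood at 6.84 and 7.90 against 0.156 and 1.06 in resident mLCs, and at 4.43 and 3.48 in MCs. Of 22 genes of the cytoskeleton and motility, 3 were over 4-fold higher: Fscn1, Rhoc, a small GTPase of the actin network (3.86 and 2.61 against 0.0868 and 0.187), and Marcks, a membrane and actin linker (9.46 and 14.3 against 1.35 and 2.82). Among trafficking receptors Ccr7 was the 1 of 9 past 4-fold, and Ccr2, the receptor of entering monocytes, stood at 0.072 and 0.0994 in migrating mLCs, 0.0250 and 0.0316 in resident mLCs and 0.522 and 0.489 in MCs. Over 4-fold higher were 0 of 11 class I genes, 2 of 9 immunoregulatory genes (Cd274 and Cd200) and 2 of 15 uptake and lysosome genes (Cd36 and Clec7a). The same held for 2 of 16 interferon-gamma targets (Cxcl9 and Cd274), 1 of 7 classical monocyte genes (Plac8) and 1 of 10 tissue macrophage genes (Ccl24). No member of these lists was over 4-fold lower. Over all genes tested, 1.29% were over 4-fold higher and 0.707% lower. Of 12 survival genes 1, Bcl2a1a, was past 4-fold, and it shares sequence with close copies that the counting may not separate.

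A minority of the annotated cells differed from the rest. Cd209a, a lectin gene of type 2 conventional dendritic cells, was seen in 5 of 91, 82 of 766, 2 of 2 and 3 of 16 migrating mLCs in the order of libraries, and in 1.90% and 0.936% of resident mLCs and 1.27% and 1.43% of MCs in BMT replicates 1 and 2. In BMT replicate 2, 19.5% of the 82 cells with a Cd209a UMI had at least 3 of the 5 migration markers, against 76.8% of the 684 without, at a median of 8567.5 and 8152 UMIs. Ccr7 averaged 1.34 in these 82 cells and 10.1 in the 684, Fscn1 0 and 5.52, and Mfge8 4.93 and 50.5, whereas Clec10a averaged 1.42 and 0.256 and Mgl2 17.003 and 6.14. In BMT replicate 1 the split was less marked, with 2 of the 5 cells against 76.7% of 86 having at least 3 markers. None of the 3 such cells of BMT + T cells and neither cell of BMT replicate 3 had at least 3. The 4 markers of type 2 dendritic cells summed to 1.21, 1.62, 16.4 and 3.59 UMIs per 10000 in migrating mLCs, 0.374 to 0.808 in resident mLCs and 0.0389 to 0.369 in MCs, and this choice of cells was made after their values had been seen. Without the cells that held a Cd209a UMI, 105 genes were over 4-fold higher and 60 lower than in resident mLCs. Markers of other cell types were low: T-cell genes summed to 0.688 or less, B-cell genes to 0.0806 or less, keratinocyte genes to 0.870 or less and neutrophil genes to 1.46 or less in every library, and no UMI of the listed mast cell gene was found. The 5 markers of type 1 conventional dendritic cells summed to 1.20 and 1.33 in migrating mLCs of BMT replicates 1 and 2, against 0.498 and 0.637 in resident mLCs and 0.985 and 1.31 in MCs. The 1 listed gene of plasmacytoid dendritic cells stood at 0.0350 and 0.217, against 0 and 0.0087 in resident mLCs. The part of type 1 and plasmacytoid dendritic cells in the results was not tested.

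**Figure D4:**
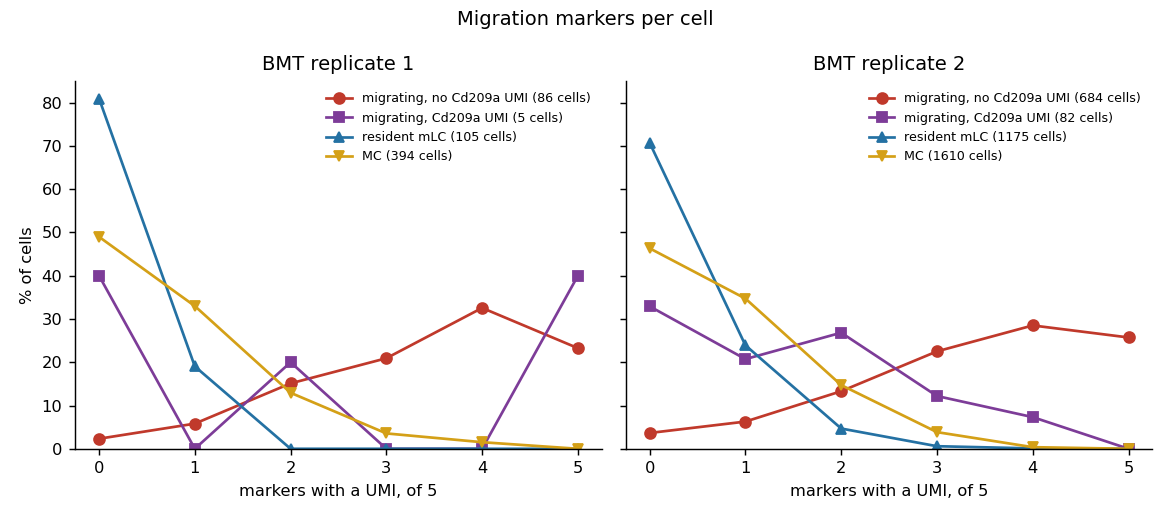
Share of cells (y axis, %) with a UMI of 0 to 5 of the markers Ccr7, Ccl22, Fscn1, Nr4a3 and Cd83 (x axis) in BMT replicate 1 (left) and BMT replicate 2 (right). Migrating mLCs without a Cd209a UMI (red) mostly had 3 or more, the 82 with one in BMT replicate 2 (purple) mostly fewer, and resident mLCs and MCs mostly 0 or 1.

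The 16 migrating mLCs of BMT + T cells had most of the same differences from resident mLCs. Of the 59 named genes past 4-fold in BMT replicates 1 and 2, 44 were higher and 15 lower. Over all genes tested, 72.1% had mean differences below 0 in BMT replicates 1 and 2. Neither that share nor the share past 4-fold was computed over all genes of BMT + T cells. In BMT + T cells, 43 of the 44 and 15 of the 15 had the same sign against its 320 resident mLCs, and 39 and 13 were past 4-fold. Compared directly with the migrating mLCs of both BMT replicates 1 and 2, 20 of 7187 genes (0.278%) were over 4-fold higher and 25 (0.348%) lower. Of the 20, 4 rested on 1 UMI in the 16 cells and 8 on 3 or fewer. The lower ones included 3 of the 16 interferon-gamma genes measured, and the higher ones none. Cxcl9, a chemokine that draws activated T cells, stood at 0.0222 (1 UMI, 95% Poisson interval 0.0253 to 5.57 UMIs) against 9.18 and 7.80, Gbp2, an interferon-induced GTPase, at 0.184 against 2.64 and 3.46, and Iigp1 had no UMI, which allows 0.129, against 1.75 and 1.96. Over the 16 interferon-gamma genes measured, the median difference was -0.84 and -0.98 from the 2 replicates, against 0.05 and -0.05 over all genes. Ccl5 was lower too (1.46 against 16.5 and 7.72) and Itgb8, an integrin chain that helps activate TGF-beta, was higher (2.07, from 13 UMIs, against 0.0377 and 0.0414). The label and the single library cannot be told apart, and BMT replicates 1 and 2 differed between themselves by over 4-fold in 10 of 6547 genes (4 higher, 0.0611%, and 6 lower, 0.0916%, in replicate 1), among them Ccl3 (1.56 and 0.143) and Ccl4 (2.52 and 0.433).

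The host library held 781 cells in 7 clusters that carry numbers only. Cluster 4, with 90 cells, was set against the others because the 5 markers were high there, so those are no result. The other 691 cells included 43 of cluster 5, where the keratinocyte genes Krt5 and Krt14 were high, and 23 of cluster 6, with the T-cell genes Cd3e and Trdc. Clusters 1 to 3 were not free of such RNA. Cluster 2 was led by the keratinocyte gene Lor (9.27, against 0.157 in the next cluster), and 112 of its 170 cells had under 500 genes or over 20% mitochondrial UMIs. Cluster 3 was led by the pigment-cell gene Mlana (0.574 against 0.0163). In all, 331 of the 781 host cells, and 33 of the 90, had under 500 genes or over 20% mitochondrial UMIs. Ccr7 stood at 2.87 against 0.0872 in the other 691 cells, Ccl22 at 12.7 against 0.173 and Fscn1 at 7.78 against 0.205. Of all 12050 genes tested in the host, 152 (1.26%) were over 4-fold higher and 161 (1.34%) lower in cluster 4. Of the genes tested in the donor, 7014 could be compared there, and 121 (1.73%) were over 4-fold higher and 78 (1.11%) lower in cluster 4. Of the 100 genes higher in donor migrating mLCs, 85 passed the level filter in the host, 51 of them over 4-fold higher and none over 4-fold lower, and 78 had the same sign. Without the 5 markers, which the choice of cluster fixed, these were 46 over 4-fold and 73 of the same sign, of 80. That choice also favours genes that vary with the markers, so the remaining counts are no independent check. Over the 7014 genes compared, the median host difference was -0.22, so differences below 0 were the more common ones. Of the 55 lower genes, all 55 had the same sign and 24 were over 4-fold lower. Set against clusters 1 to 3 only, 53 and 27 were past 4-fold, and without the host cells outside those limits 49 and 20. Host cluster 4 thus shared Cacnb3 (5.23 against 0.191), Samsn1 (4.92 against 0.186), Mreg (4.67 against 0.389), Rel (6.62 against 1.33), Map3k14 (4.78 against 0.762) and, lower, Ptgs1 (1.34 against 6.65) and Alox5 (0.390 against 2.19).

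Fewer of the genes that were also high in MCs were over 4-fold higher in the host, a difference that was not tested. Of the 27 genes higher than in both resident mLCs and MCs, 20 could be compared once the 5 markers were set aside, and 13 (65.0%) were over 4-fold higher in host cluster 4, with a median difference of 2.48. Of the 27 that were also high in MCs, 18 could be compared and 7 (38.9%) were over 4-fold higher, with a median of 1.19. Ccl17 was one of the 7, at 1.04 (30 UMIs) against 0.00497 (7 UMIs) in the other host cells. Clec7a stood at 0.975 against 0.400, and Mgl2, at 0.0513 and 0.0750, did not pass the filter. Of 16 genes of Langerhans cell identity compared in the host, 9 were over 4-fold lower in cluster 4 and 1, Ly75, was over 4-fold higher, with a median difference of -2.05. The lower ones included Cdh1 (0.308 against 1.95) and Lpar3 (0.577 against 2.81), and Epcam stood at 1.17 against 2.79. Cd207 (6.84 against 4.76) and Mfge8 (22.4 against 11.98) differed the other way, short of 4-fold, and Cldn1 was near level (2.70 against 2.59). The tables were normalised separately and levels are compared only within each.

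**Figure D5:**
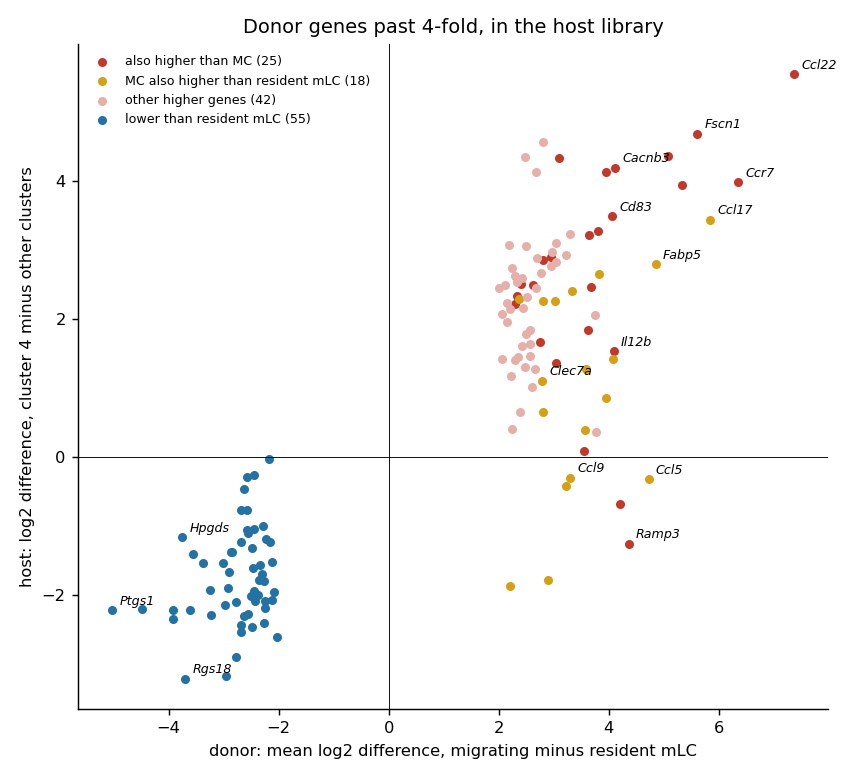
Mean log2 difference between donor migrating and resident mLCs over BMT replicates 1 and 2 (x axis) and log2 difference between host cluster 4 and all other host cells (y axis) of the 140 genes past 4-fold in the donor that passed the level filter in the host. All 55 lower genes (blue) lie under 0 in the host, 78 of 85 higher genes lie above it, and Ramp3, Ccl5 and Ccl9 lie under it. The median host difference over the 7014 genes compared was -0.22.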

How the data were processed

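Single-cell RNA was read from sorted epidermal cells. The authors mapped and counted reads with kallisto, bustools and Seurat on GRCm38, per the labels, removed cells with under 500 genes or over 20% mitochondrial reads and called doublets, per their methods; no doublet caller was run here. The deposited tables still list 234 donor and 331 host cells outside those limits. The deposited expression values are the natural log of 1 plus UMIs per 10000 UMIs of a cell. The deposited mitochondrial percentage is the percent of a cell's UMIs from mitochondrial genes. The deposited latent time is a fraction from 0 to 1 inferred by the authors over the donor cells, and the cluster names are theirs too. The donor table listed 15155 genes and that of the host 23737.

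UMIs were recovered from these values and each cell's deposited total, and 100% of nonzero donor values came out whole within 0.001. The donor cells held 110742346 UMIs together, and in the median cell 91.3% of them belonged to listed genes. Levels were averaged over the cells of a cluster in each library. Log2 ratios used a pseudocount of 0.1 after a filter of 0.1 in either cluster, and a gene counted when past 4-fold the same way in each library with at least 20 cells. The fold understates the change of low genes. Clusters derive from the same values, so these counts carry no p-value. Cells were thinned to 2000 UMIs (seed 1) for shares of cells. On simulated counts, 97 of 100 genes with an 8-fold change were called in the comparison of migrating with resident mLCs, 0 of 100 with a 2-fold change and 0 of 7207 unchanged. These counts were Poisson draws from 1 level per gene shared by clusters and libraries. They hold no further spread between cells or libraries, so they show counting error only and give no rate of false calls in the real data. A 2-fold change lies under the 4-fold threshold by design. Python 3.11.15, numpy 2.4.6, pandas 2.3.3, scipy 1.17.1 and matplotlib 3.10.9 were used.

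Genes were named as the 5 markers, the genes with the largest differences against resident mLCs (10 each way), MCs (5 each way) and every other cluster (10), members of gene lists past 4-fold or, failing that, the 4 with the largest differences, and a set of known genes. Others, such as Mfge8, Cldn1, Ly75, Alox5ap, Ebi3, Marcksl1, Cd209a, Itgb8, Gbp2 and Iigp1, were picked after their values were seen. The members, gene lists and comparisons were chosen with earlier results of these data known. The labels do not tie libraries to animals or sorts, so the spread between libraries may be technical. Keratinocyte libraries were not used here. Alternatives are given in the closing section.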

Additional observations from a re-analysis of the deposited data

Results flagged for a closer look

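Among 85 genes higher in donor migrating mLCs that could be compared in the host, 7 had the opposite sign in host cluster 4, and 3 of the named genes were of this kind. The log2 difference between host cluster 4 and the other host cells was -1.26 for Ramp3, a receptor-modifying membrane protein, -0.32 for Ccl5 and -0.30 for Ccl9, where the donor differences were positive in both libraries. These host values rest on few cells. Ramp3 had 2 UMIs in host cluster 4, and Ccl9 had 6. Ccl5 had 12 UMIs there and 235 in 8 of the other 691 cells, and by share of cells it was the higher one in cluster 4 (7.78% against 1.16%). In BMT + T cells, Cxcl9 was lower in migrating than in resident mLCs by a log2 difference of -2.68, from 1 UMI in 16 cells, while it was higher in BMT replicates 1 and 2. Each of these 4 differences is one of direction between groups of cells or libraries, and none was tested.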

How the results depend on the processing

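None of the 59 named genes past 4-fold in the main run turned its direction under the alternatives run. A turn of direction was not looked for in the other named genes, and counts have no direction to turn. Labelled groups could not be compared in pairs, because the labels give BMT + T cells and the host 1 library each, so the groups share 1 replicate number. Differences between clusters, the mitochondrial test included, were taken within each library. The counts depend most on the pseudocount, since many genes were near 0 in 1 cluster. Against resident mLCs, 100 genes higher and 55 lower became 238 and 226 with a pseudocount of 0.01, 19 and 3 with 1, and 61 and 32 on the mean of the deposited log values; a filter of 1 UMI per 10000 left 32 lower. Against MCs, 33 and 5 became 101 and 23 with 0.01, and 9 and 0 with 1. The 27 genes higher than both became 74, 8 and, on log values, 17, and the 19 over every other cluster 44, 4 and 12. With a pseudocount of 1, 17 of the 59 named genes stayed past 4-fold, and in the host 11 of the higher and 1 of the lower donor genes did; at 2-fold in the host, 49 of the lower did. For the resident genes at the MC level (28), the values were 90, 3 and, with the filter of 1, 15; at the resident level (3), 5, 1 and, on log values, 1. For the MC genes at the MC level (32) they were 75 and 5; at the resident level (5), 0 with a pseudocount of 1 and 3 with the filter of 1. Asking for every library with at least 10 cells, BMT + T cells included, gave 2 lower than MCs, 17 and 16 at the MC level and 2 MC genes at the resident level. Leaving out 1 BMT library, so that the other alone decided, gave 120 to 174 higher and 73 to 133 lower than resident mLCs, 40 to 67 and 8 to 15 against MCs, 32 to 50 over both, 22 to 29 over every other cluster, 39 to 59 and 3 to 7 resident genes and 40 to 64 and 7 to 13 MC genes at the MC and resident levels; the larger values came without BMT replicate 2. Fewer libraries to pass is how these settings raise the counts. Without the cells that held a Cd209a UMI, added after seeing the data, the counts were 105 and 60. The other 105 main values and 861 values of named genes moved little while 279 moved further. Low genes are limited by depth in BMT replicate 1, with 91 cells, and in BMT + T cells, with 16.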
